A study of Mus musculus with 2 samples.

Results

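Cardiomyocyte barcodes in which a GFP transcript was counted were compared with cardiomyocyte barcodes of equal depth in which none was counted. A barcode marks the RNA of 1 droplet, and a UMI (unique molecular identifier) marks 1 captured RNA molecule. A barcode was taken as a cardiomyocyte if it held at least 2000 UMIs and if Ttn, the giant sarcomere protein titin, and Ryr2, through which the sarcoplasmic reticulum releases calcium, together made up at least 2% of them. Of 12736 barcodes in library 1 and 9447 in library 2, 7714 and 2632 met that rule. At least 1 GFP UMI was present in 1505 and 611 of these, called GFP-positive here, and 6209 and 2021 had none. For each library, GFP-negative barcodes were drawn to match the positives in bins of 1000 total UMIs. This left 1467 pairs in library 1 and 582 in library 2, because 38 and 29 positives had no negative left in their bin. The choice of barcodes rests on GFP, Ttn, Ryr2 and depth, so GFP was left out of the sums and no test of Ttn or Ryr2 is read here. Both stayed among the genes tested and in the counts and medians of the lists that hold them.

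Both libraries came from the right ventricle of C57/BL6J mice with loxP-flanked alleles at 3 loci, given as CBP flox/flox together with p300 flox/flox and also Trap flox/flox. Pups received AAV9, an adeno-associated virus widely used to reach the heart, on postnatal day 1 to knock out p300 and CBP, and the tissue was taken on postnatal day 21. Every barcode on both sides of the comparison therefore comes from an injected animal, and no uninjected or Cre-free control entered the analysis. The labels do not name the promoter or the cargo of the virus, or how many animals went into a library. They describe flash-frozen tissue, collagenase digestion, an enrichment for CD45-positive cells and 3' v3 droplet chemistry. The 2 libraries form 1 group of 2 samples, and nothing says that they came from separate animals. The main test compares positives with negatives inside each library, so differences in level between the libraries drop out. Its p-values rest on how far the 2 within-library differences disagree, a spread pooled across genes. That spread may be technical.

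As background, p300 and CBP are related lysine acetyltransferases that act as coactivators at enhancers and promoters. In floxed mice Cre recombinase removes the DNA between the loxP sites, and a reporter allele that Cre switches on marks the cells in which this took place. One reporter used for translating ribosome affinity purification, abbreviated TRAP, places a fusion of enhanced GFP with ribosomal protein L10a, the product of Rpl10a, at the Rosa26 locus, whose own transcript is Gt(ROSA)26Sor. Whether the Trap allele of these mice is that reporter, and whether the GFP counted here came from it or from the virus, is stated in none of the sources used here and was not tested.

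GFP transcripts were found mainly in the barcodes rich in cardiomyocyte RNA. A GFP UMI was counted in 19.5% of cardiomyocyte barcodes of library 1 (95% Clopper-Pearson interval 18.6 to 20.4) and in 23.2% of library 2 (21.6 to 24.9), at median depths of 5258 and 7812 UMIs. Among barcodes with at least 2000 UMIs but less than 2% Ttn and Ryr2, 2.81% of 1635 (2.07 to 3.74) and 1.18% of 5359 (0.905 to 1.5) had one, at median depths of 2813 and 3637 UMIs. As a level, GFP stood at 43.6 and 39.8 CPM (counts per 1000000 UMIs) in cardiomyocyte barcodes and at 10.3 and 2.88 CPM in the others. Thinned to 2000 UMIs each, 7.32% and 6.16% of cardiomyocyte barcodes kept a GFP UMI, against 1.47% and 0.467% of the others. These intervals cover counting error only. The low-Ttn barcodes of library 1 were not free of cardiomyocyte RNA. A list of 15 cardiomyocyte markers, Ttn and Ryr2 among them, summed to 22868 CPM there against 3787 CPM in library 2.

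Few GFP molecules were counted per barcode, so a barcode with 0 GFP UMIs is not shown to lack GFP. The share with a GFP UMI rose with depth, from 9.0% of cardiomyocyte barcodes with 2000 to 4000 UMIs to 52.6% of those with 15000 or more in library 1, and from 7.49% to 47.1% in library 2. The GFP level per UMI was not constant either. Between the same bins it went from 31.5 to 53.7 CPM in library 1 and from 24.9 to 44.7 CPM in library 2. If every cardiomyocyte barcode of a library had shared 1 GFP rate per UMI, 1772.3 and 774.8 positive barcodes would have been counted, against the 1505 and 611 observed. The same rate gives 43.6 and 30.7 barcodes with 3 or more GFP UMIs, where 130 and 83 were found. The counts were thus spread less evenly than a single rate gives, with more barcodes at 0 and more at 3 or above. Close to the limits of the rule, GFP was counted in 9.45% of 254 barcodes of library 1 with 2.0% to 2.2% Ttn and Ryr2 and in 10.3% of 165 with 1.8% to 2.0%. In library 2 these shares were 8% of 50 and 27.6% of 29. Around the depth limit, 5.52% of 145 barcodes with 2000 to 2200 UMIs and 6.98% of 129 with 1800 to 2000 had a GFP UMI in library 1, and 0 of 3 and 0 of 3 in library 2.

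**Figure D1:**
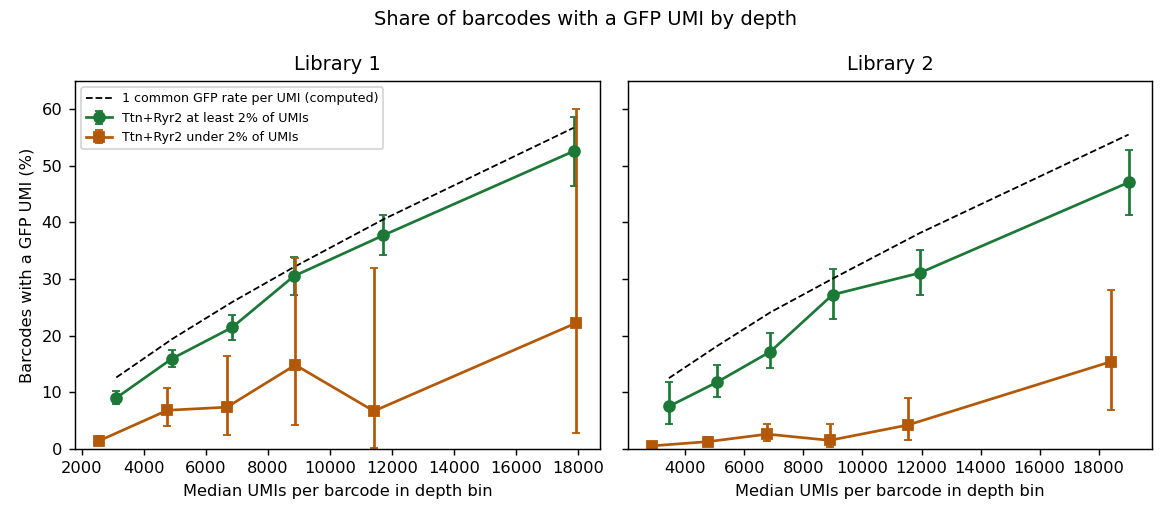
Share of barcodes with a GFP UMI (percent, y axis) against the median UMIs of each depth bin (x axis), for cardiomyocyte barcodes (circles) and for barcodes with less than 2% Ttn and Ryr2 (squares), with 95% Clopper-Pearson intervals. The dashed line is the share that 1 GFP rate per UMI would give. Cardiomyocyte barcodes rise to 52.6% and 47.1% and stay under the dashed line. The last 2 squares of library 1 rest on 15 and 9 barcodes.

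The matched sums were alike in depth and differed a little in composition. Median UMIs were 6987 in positives and 6991 in negatives of library 1, and 9986.5 and 9927.5 in library 2. A median of 0.214% of UMIs was mitochondrial in positives and 0.228% in negatives of library 1, and 0.0876% and 0.102% in library 2. Malat1, an RNA kept in the nucleus, took a median of 6.39% and 5.91% in library 1 and 5.06% and 4.63% in library 2. Ttn and Ryr2 together took 3.63% and 3.48%, and 4.48% and 4.18%. In both libraries the positives were thus slightly richer in Malat1, Ttn and Ryr2 and slightly poorer in mitochondrial RNA. In the whole series 17 barcode sequences occurred in both libraries, and for 1 of them both barcodes met the cardiomyocyte rule.

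The first question was which genes differ between GFP-positive and GFP-negative cardiomyocyte barcodes of the same suspension. Among 13787 genes tested with edgeR's quasi-likelihood test on the 4 sums, 70 genes were higher in the positives (0.508%) and 299 were lower (2.17%) at a Benjamini-Hochberg adjusted p under 0.05. Together these are 2.68% of the genes tested. In 67 and 283 of them (0.486% and 2.05% of genes tested) both libraries gave the same sign. At an unadjusted p under 0.05 stood 528 higher genes (3.83%) and 1041 lower genes (7.55%). These totals depend on how the spread is estimated. With 1 residual degree of freedom, edgeR set each gene's own spread aside for one pooled across genes. This makes the smallest adjusted p-values below smaller than 2 libraries alone could give. DESeq2 called 4 higher (0.029%) and 21 lower (0.152%), another random draw of negatives left 5 and 42, and without library as a block no gene was called. Without that block, 10 and 44 genes had an unadjusted p under 0.05. The account below therefore leads with genes that were called in the same direction under each of 14 alternative settings that kept the block and gave a test, over which the counts and ranges below are given. A pair of further settings added after the data were seen, which are not in that tally, called these genes in the same direction too. There were 3 higher genes (Rpl10a, Gt(ROSA)26Sor and Eml6) and 13 lower genes (Astn2, Gm12153, Sh3rf2, Rgs7, Zfp385b, Hs3st5, Kcnip2, Art1, Prune2, Tnfaip8, Kcnd2, Rbfox1 and Limch1). Of these, Gm12153, Art1, Prune2, Tnfaip8 and Limch1 were chosen after their values were seen. The settings draw on the same positive barcodes, and some refit the same 4 sums, so they are not independent of each other. The set of genes was itself picked by these results.

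**Figure D2:**
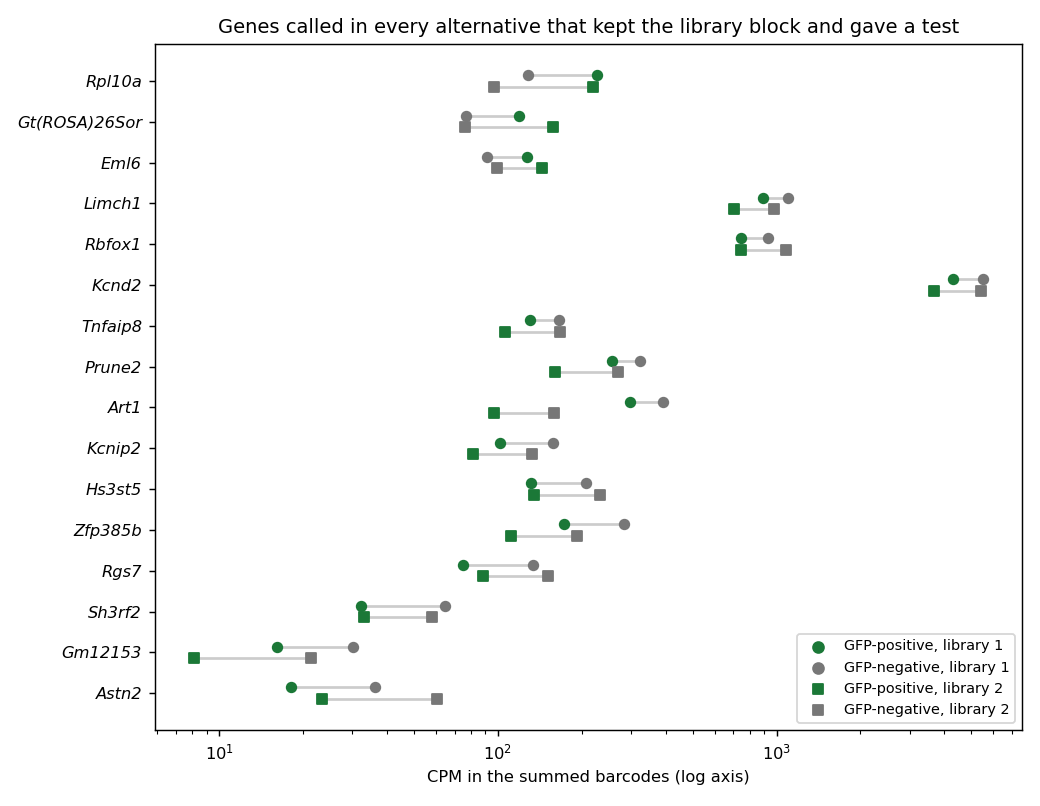
Level of each of these genes in the 4 sums, in CPM on a log axis, for GFP-positive (green) and GFP-negative (grey) barcodes of library 1 (circles) and library 2 (squares). For the 3 genes at the top both green points lie to the right of the grey point of the same library, as for Rpl10a at 226 against 128 CPM and 219 against 96.5 CPM. For the 13 genes below them both lie to the left.

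Rpl10a, which encodes a protein of the large ribosomal subunit, had the smallest adjusted p of the 3 higher genes. It stood at 226 CPM in positives and 128 CPM in negatives of library 1, and at 219 and 96.5 CPM in library 2. Both positive sums lay above both negative sums. The log2 difference was 0.97 (SE 0.07, edgeR adjusted p = 8.91e-46; DESeq2 adjusted p = 6.3e-11), and over these 14 alternatives it ran from 0.90 to 1.3. At least 1 Rpl10a UMI was present in 76.6% of positive and 53.2% of negative barcodes of library 1, and in 82.0% and 50.9% in library 2. On GRCm38 the gene spans bases 28328471 to 28331033 of chromosome 17 (plus strand). Its neighbours that were tested, Ppard, Fance and Tead3, were not called, with log2 differences of -0.09, 0.01 and -0.10. They were looked up after the Rpl10a value was seen.

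No gene of the ribosomal protein list, which does not hold Rpl10a, was called with it. The 38 genes of the list include Eef1a1, Eef2 and Tpt1, which do not encode ribosomal proteins. Of the 38 tested, 0 were called by edgeR or by DESeq2, and 7 had a positive sign. At an unadjusted p under 0.05, 10 were lower and 0 were higher. The median log2 difference was -0.14, against -0.01 over all genes tested. Without barcodes that held markers of other cell types, as set out below, that median was -0.01.

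Gt(ROSA)26Sor, the non-coding transcript of the Rosa26 locus into which many reporters have been placed, was raised as well. It was at 119 CPM in positives and 76.9 CPM in negatives of library 1, and at 158 and 76.2 CPM in library 2. The 2 negative sums were nearly equal, and both positive sums lay above them. Its log2 difference was 0.82 (SE 0.07, edgeR adjusted p = 8.54e-27; DESeq2 adjusted p = 2.7e-05), with a range of 0.67 to 1.13 over the 14 alternatives. The gene, annotated as antisense, spans bases 113067428 to 113077333 of chromosome 6 (minus strand, GRCm38) and overlaps the start of Thumpd3 on the other strand. Thumpd3 differed by 0.004 (SE 0.14), Setd5 beside it by -0.17 (SE 0.06, edgeR adjusted p = 0.116) and Srgap3 by -0.17 (SE 0.28), so none of these neighbours, which were looked up after the Gt(ROSA)26Sor value was seen, was called. The sources used here do not give whether reads were counted by strand, and reads in the stretch shared with Thumpd3 are uncertain to that extent. Neither the gene counts nor the labels show whether transcripts of a reporter were counted as Rpl10a or Gt(ROSA)26Sor, and that was not tested.

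Eml6, which encodes a protein of the EMAP family that binds microtubules, completed the raised set. Its level was 127 CPM in positives and 91.1 CPM in negatives of library 1, and 144 and 99.3 CPM in library 2. The log2 difference was 0.49 (SE 0.07, edgeR adjusted p = 5.7e-10), from 0.32 to 0.69 over the 14 alternatives, and DESeq2 called it narrowly (adjusted p = 0.046). Further genes were higher under the main setting but lost the call under some alternatives. Grk4, a kinase of G protein-coupled receptors, was at 46.7 and 31.8 CPM and at 60.4 and 46.2 CPM (log2 0.47, SE 0.10, edgeR adjusted p = 0.000129), and was called in 11 of 14 alternatives. Prkdc, the catalytic subunit of DNA-dependent protein kinase, was at 108 and 83.4 CPM and at 108 and 82.6 CPM (log2 0.37, SE 0.07, edgeR adjusted p = 5.36e-05), called in 7 of 14. Bbs9 and Zfp445, at log2 differences of 0.39 and 0.37, were each called in 11 of 14.

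A few single barcodes can set a sum. Slit2, a secreted guidance protein, had a log2 difference of 0.60 (SE 0.08, edgeR adjusted p = 7.45e-12), but 1 barcode held 19% of its UMIs in the positives of library 2, and with the other draw of negatives the difference was 0.25 (edgeR adjusted p = 0.192). S100a9, a neutrophil protein, had a log2 difference of 4.78, which rested on 1 barcode with 99.6% of its UMIs in the positives of library 2. In library 1 S100a9 was lower in the positives, at 0.0847 against 0.679 CPM. Its partner S100a8 showed the same pattern, at 47.7 against 1.38 CPM in library 2 and 0.0847 against 0.425 CPM in library 1.

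The lower genes included the subunits of the fast transient outward potassium current, which repolarises the early action potential of ventricular cardiomyocytes in the mouse. Kcnd2, the pore-forming subunit Kv4.2, was at 4301 CPM in positives and 5506 CPM in negatives of library 1, and at 3668 and 5417 CPM in library 2. Both positive sums lay below both negative sums. The log2 difference was -0.47 (SE 0.05, edgeR adjusted p = 2.01e-19; DESeq2 adjusted p = 1.6e-06), and its range over the 14 alternatives was -0.58 to -0.39. Kcnip2, the auxiliary subunit KChIP2 that binds Kv4 channels, was at 102 and 158 CPM in library 1 and 81.5 and 132 CPM in library 2 (log2 -0.67, SE 0.07, edgeR adjusted p = 5.01e-19), from -0.82 to -0.64 over the 14 alternatives. At least 1 Kcnip2 UMI was found in 43.1% of positive and 54.7% of negative barcodes of library 1, and in 41.2% and 57.2% in library 2.

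Kcnd3, the related pore-forming subunit Kv4.3, was lower too. It was at 331 and 402 CPM in library 1 and at 192 and 296 CPM in library 2, so the positives of library 1 lay above the negatives of library 2, and the difference is seen within each library. The log2 difference was -0.44 (SE 0.06, edgeR adjusted p = 5.27e-11), and it was called in 13 of 14 alternatives. The exception was the set of positives with at least 2 GFP UMIs, where it was -0.30 (edgeR adjusted p = 0.0729). On GRCm38, Kcnd2 lies on chromosome 6 from 21215503 to 21729805 (plus strand), Kcnip2 on chromosome 19 from 45791839 to 45816061 (minus strand) and Kcnd3 on chromosome 3 from 105452330 to 105674002 (plus strand).

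Of the whole list of potassium, sodium and pacemaker channel genes and their partners, 27 were tested, of which 8 were lower and 1 was higher, with a median log2 difference of -0.16 against -0.01 over all genes tested. As shares of the list these are 29.6% and 3.70%, beside 2.17% and 0.508% of all genes. DESeq2 called 3 of the lower genes, and the other draw of negatives also left 3. Besides those of the transient outward current, the lower genes included Kcnj3, Fgf12 and Hcn2, and the higher gene was Abcc9. Kcnj3, a subunit of the acetylcholine-activated potassium channel, was at 634 and 654 CPM in library 1 and 350 and 483 CPM in library 2 (log2 -0.25, SE 0.06, edgeR adjusted p = 0.000827), called in 7 of 14 alternatives. Fgf12 had opposite signs in the libraries, at 5.50 and 5.35 CPM and at 0.766 and 12.7 CPM. Abcc9, the sulfonylurea receptor of ATP-sensitive potassium channels and also a pericyte marker, was at 386 and 318 CPM and at 355 and 322 CPM (log2 0.20, SE 0.06, edgeR adjusted p = 0.0218), called in 4 of 14. Kcnq1, a delayed rectifier channel, differed by 0.06 (SE 0.06) and was not called. Neither was Kcnj2, an inward rectifier, which was at 69.1 and 82.1 CPM and at 35.7 and 39.2 CPM (log2 -0.22, SE 0.09, edgeR adjusted p = 0.217). Kcnq5, outside the list, was at 29.6 and 42.4 CPM and at 46.8 and 138 CPM (log2 -1.07, SE 0.09, edgeR adjusted p = 5.69e-30), but DESeq2 did not call it (adjusted p = 1).

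Calcium handling, which the series' title names, differed little. Contraction starts when calcium entering through Cacna1c channels opens Ryr2, and ends as the pump Atp2a2, held back by Pln, returns calcium to the store. Of 43 calcium handling genes tested, the rule gene Ryr2 among them, 0 were higher and 4 were lower. These 4 are 9.30% of the list, beside 2.17% of all genes tested, and the median log2 difference of the list was -0.06. DESeq2 called 1 of the 4 and the other draw of negatives none. Atp2a2 was at 5795.5 and 5628 CPM and at 4770.0 and 4513 CPM (log2 0.05, SE 0.05, edgeR adjusted p = 0.77). Pln was at 3082 and 2932 CPM and at 2193 and 2005 CPM (log2 0.09, SE 0.05, edgeR adjusted p = 0.486). Cacna1c and Slc8a1, the sodium-calcium exchanger, each differed by -0.05 (SE 0.05), Casq2 by -0.02 (SE 0.06), Trdn by -0.08 (SE 0.05), Jph2 by -0.05 (SE 0.06) and Camk2d by 0.02 (SE 0.05). The 95% intervals of the fit ran from -0.04 to 0.15 for Atp2a2, from -0.00 to 0.19 for Pln and from -0.14 to 0.04 for Cacna1c.

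The 4 lower calcium handling genes were Hrc, Tmem38a, Stim1 and Sln. Hrc, a calcium-binding protein of the sarcoplasmic reticulum, was at 161 and 206 CPM in library 1 and 53 and 88.7 CPM in library 2. Positives were below negatives within each library, while the levels of the libraries themselves lay further apart. The log2 difference was -0.50 (SE 0.07, edgeR adjusted p = 4.75e-10), DESeq2 called it (adjusted p = 0.04), and the other draw of negatives did not (log2 -0.45, edgeR adjusted p = 0.0802). Tmem38a, a cation channel of the same membrane, was at 196 and 221 CPM and at 155 and 192 CPM (log2 -0.24, SE 0.06, edgeR adjusted p = 0.00807), called in 6 of 14 alternatives. Stim1, the sensor of store calcium, was at 12.6 and 15.4 CPM and at 25.9 and 42.5 CPM (log2 -0.52, SE 0.13, edgeR adjusted p = 0.00409), called in 4 of 14. Sln, sarcolipin, is mainly atrial and is given with the atrial genes below.

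**Figure D3:**
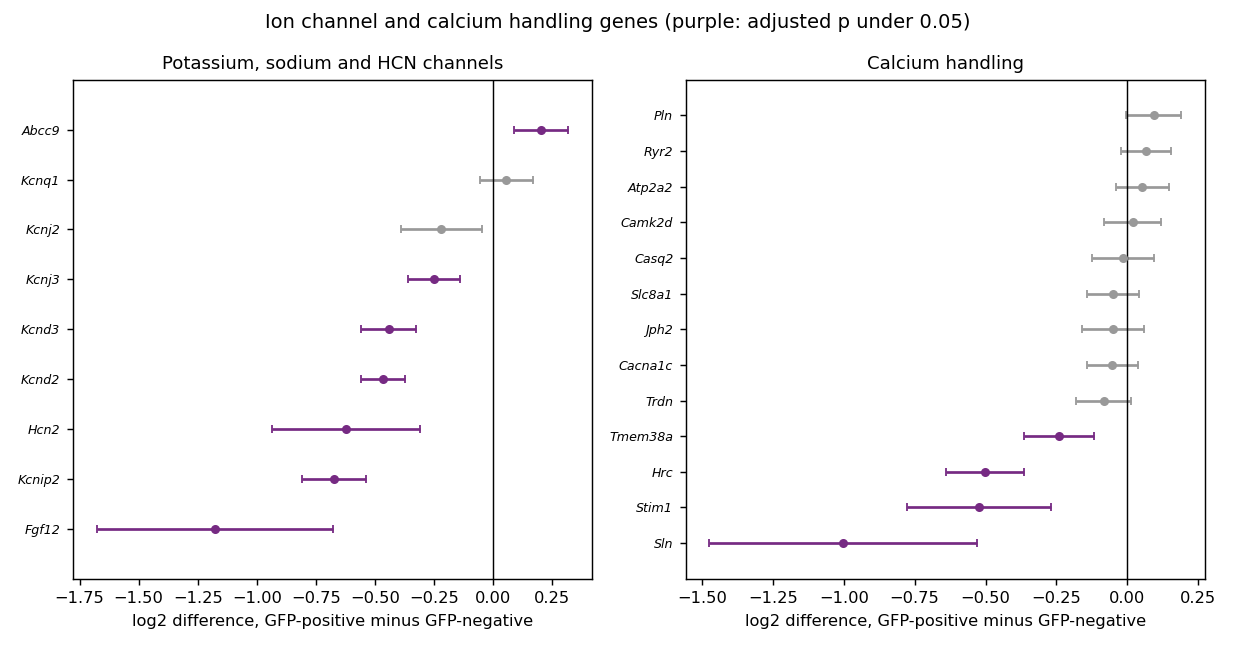
Log2 difference of GFP-positive minus GFP-negative sums (x axis) for the genes of the ion channel list (left) and the calcium handling list (right) that the text names, with 95% intervals from the edgeR fit. Purple marks an adjusted p under 0.05, which is not read for Ryr2, since the choice of barcodes rests on it. Kcnd2, Kcnd3 and Kcnip2 lie at -0.47, -0.44 and -0.67, whereas Atp2a2, Pln and Cacna1c lie within 0.1 of 0.

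A further 11 genes were lower under each of the 14 alternatives. Rgs7, which speeds the shut-off of G proteins, was at 74.8 and 134 CPM in library 1 and 88.3 and 151 CPM in library 2 (log2 -0.82, SE 0.07, edgeR adjusted p = 9.95e-28). Zfp385b, a zinc finger protein, was at 173 and 285 CPM and at 112 and 193 CPM (log2 -0.76, SE 0.06). Hs3st5, an enzyme that adds sulfate to heparan sulfate chains, was at 132 and 207 CPM and at 134 and 233 CPM (log2 -0.72, SE 0.06). For Rgs7, Zfp385b and Hs3st5 both positive sums lay below both negative sums. The largest of these differences were in genes of low level. Astn2, a membrane protein studied in neurons, was at 18.0 and 36.1 CPM and at 23.3 and 60.4 CPM (log2 -1.18, SE 0.11), and Sh3rf2, a ubiquitin ligase, was at 32.3 and 64.6 CPM and at 33.0 and 58.1 CPM (log2 -0.93, SE 0.10). Gm12153, a long non-coding RNA, was at 16.2 and 30.2 CPM and at 8.12 and 21.4 CPM (log2 -1.07, SE 0.14).

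Smaller differences marked the rest of that set. Rbfox1, a splicing regulator of muscle and neurons, was at 747 and 933 CPM in library 1 and 746 and 1082 CPM in library 2 (log2 -0.43, SE 0.05, edgeR adjusted p = 3.02e-13). Of 16 splicing regulators it alone was called by edgeR (6.25%, beside 2.17% lower among all genes tested), and the median of that list was -7e-05. Limch1, which acts on non-muscle myosin, was at 894 and 1096 CPM and at 705 and 978 CPM (log2 -0.39, SE 0.05). Art1, an ADP-ribosyltransferase of striated muscle, was at 297 and 390 CPM and at 96.7 and 159 CPM (log2 -0.53, SE 0.06). Prune2 differed by -0.52 (SE 0.06) and Tnfaip8 by -0.49 (SE 0.07). Ctla4, known as an inhibitory receptor of T cells, was at 38.7 and 63.1 CPM and at 11.3 and 26.8 CPM (log2 -0.86, SE 0.11, edgeR adjusted p = 1.45e-12), and was called in 13 of 14 alternatives. The level of Ctla4 was lower in the barcodes with little Ttn and Ryr2, at 15.3 and 2.08 CPM, and the whole list of 12 lymphocyte markers summed to between 8.32 and 27.4 CPM in the 4 sums. How reads in introns and overlapping genes were counted is not stated, so counts assigned to Ctla4 need not all be its own transcripts.

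Differences were also examined by the number of GFP UMIs, using positives with exactly 1 GFP UMI and positives with 2 or more, each with negatives of its own and no barcode in common. The first held 1080 and 395 positive barcodes and the second 387 and 187. The set with exactly 1 GFP UMI was defined after the data were seen. Rpl10a was higher in both, by 0.87 on the log2 scale at 1 GFP UMI and by 1.15 at 2 or more. Gt(ROSA)26Sor differed by 0.66 and 1.13, and Eml6 by 0.46 and 0.57. Kcnd2 was lower by a log2 value of -0.53 and -0.39, Kcnip2 by -0.66 and -0.82, and Zfp385b by -0.68 and -0.91. Each of these was called in both sets by edgeR. The set with 2 or more GFP UMIs is among the alternatives by which these genes were picked. Their calls in it were thus fixed by that choice and add no support. The set with exactly 1 GFP UMI was not among those alternatives, but it draws on the same positive barcodes as the main test. The difference between the 2 sets was not tested, and the barcodes with more GFP UMIs were also deeper, with median depths of 9359 and 12242 UMIs against 6298.5 and 9016.

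Over all cardiomyocyte barcodes, without matching, the level of Rpl10a in library 1 was 136 CPM at 0 GFP UMIs (95% Poisson interval 132 to 140), 210 CPM at 1 (201 to 221), 234 CPM at 2 (217 to 254) and 276 CPM at 3 or more (252 to 302). In library 2 it was 99.8, 193, 216 and 279 CPM. Kcnip2 in library 1 was at 161 CPM (157 to 165), 105 CPM (98.3 to 112), 89.9 CPM (79.0 to 102) and 93.5 CPM (79.8 to 109), and in library 2 at 144, 89.3, 78.6 and 69.6 CPM. The step between 0 and 1 GFP UMI exceeded the counting intervals for both genes in both libraries, and neighbouring levels above it overlapped in part.

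**Figure D4:**
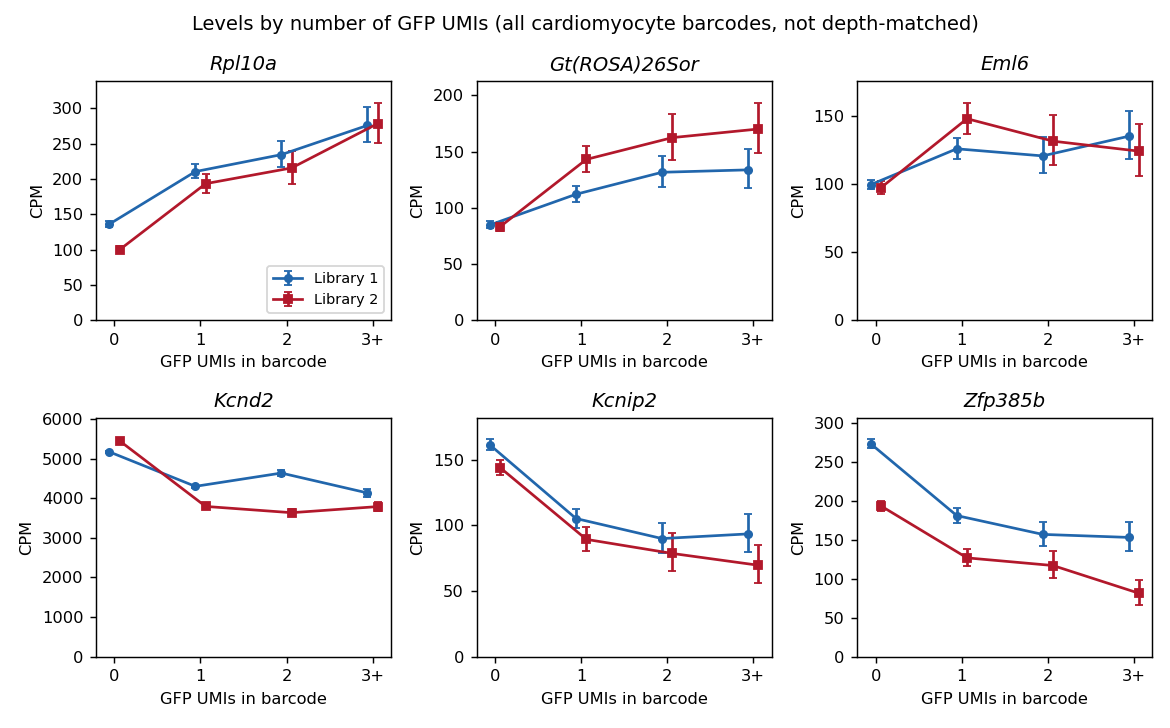
Level in CPM (y axis) of 6 genes in all cardiomyocyte barcodes of library 1 (circles) and library 2 (squares), grouped by the number of GFP UMIs in the barcode (x axis), with 95% Poisson intervals that cover counting error only. Barcodes were not matched for depth. Rpl10a runs from 136 to 276 CPM in library 1, while Kcnip2 runs from 161 to 93.5 CPM.

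The targeted genes themselves did not pass the test. Ep300, which encodes p300, was at 117 CPM in positives and 112 CPM in negatives of library 1, and at 130 and 117 CPM in library 2 (log2 0.10, SE 0.07, 95% interval -0.04 to 0.23, edgeR adjusted p = 0.689). Crebbp, which encodes CBP, was at 391 and 380 CPM and at 515 and 472 CPM (log2 0.08, SE 0.06, interval -0.04 to 0.19, edgeR adjusted p = 0.705). Positives were slightly above negatives in each library for both genes. Counts near the 3' end need not touch a deleted exon, so these levels check neither the deletion nor GFP as a mark of it. Among 15 other lysine acetyltransferase genes and 24 genes of bromodomain proteins and other chromatin readers, 0 were called by edgeR or DESeq2, and 0 had an unadjusted p under 0.05. Of 18 deacetylases, Hdac9 was lower (392 and 452 CPM, 357 and 453 CPM, log2 -0.28, SE 0.06, edgeR adjusted p = 0.000132) and Hdac8 was higher (log2 0.20, SE 0.06, edgeR adjusted p = 0.0438), called in 8 and 2 of 14 alternatives. Each is 5.56% of the list, beside 2.17% lower and 0.508% higher among all genes tested, and DESeq2 and the other draw called neither.

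Sarcomere genes showed few stable differences. Of 49 tested, the rule gene Ttn among them, 3 were higher (Tnnt2, Mybpc3 and Myom2) and 5 lower (Myl4, Myl7, Tpm1, Pdlim3 and Synpo2), with a median of -0.01. These are 6.12% and 10.2% of the list, beside 0.508% and 2.17% of all genes tested. DESeq2 called none, the other draw of negatives left 0 higher and 1 lower, and Tpm1 had opposite signs in the libraries. Mybpc3, myosin-binding protein C of the heart, was at 1381 and 1187 CPM in library 1 and 1113 and 927 CPM in library 2 (log2 0.23, SE 0.05, edgeR adjusted p = 0.000863), called in 5 of 14 alternatives. Pdlim3, a Z-disc protein, was at 72.1 and 105 CPM and at 61.3 and 87.9 CPM (log2 -0.54, SE 0.08, edgeR adjusted p = 8.85e-10), called in 11 of 14. The myosin heavy chains Myh6 and Myh7 differed by 0.07 (SE 0.05) and 0.12 (SE 0.06) and were not called.

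Receptors and kinases of adrenergic signalling were among the lower genes. Of 27 genes of the adrenergic and cyclic nucleotide list, 5 were lower (18.5%, beside 2.17% of all genes tested) and 0 higher, and with the other draw of negatives 2 were lower. Adra1a, an alpha-1 adrenergic receptor, was at 162 and 194 CPM in library 1 and 121 and 167 CPM in library 2 (log2 -0.36, SE 0.07, edgeR adjusted p = 9.5e-06), called in 12 of 14 alternatives. Adra1b differed by -0.27 (SE 0.07), Grk5, a receptor kinase, by -0.30 (SE 0.06), Pde7a, a phosphodiesterase, by -0.32 (SE 0.06) and Adcy5, an adenylate cyclase, by -0.23 (SE 0.07). DESeq2 called none of the 5. Of 33 genes of cell contacts, 3 were lower (9.09%, beside 2.17% of all genes tested) and 0 higher, and DESeq2 and the other draw called 0. Among the 3 was Gja1, the main ventricular gap junction protein, called in 8 of 14 alternatives. It was at 376 and 418 CPM and at 354 and 469 CPM (log2 -0.28, SE 0.06, edgeR adjusted p = 0.00012).

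Genes of energy supply leaned lower to different degrees. Of 13 transcripts encoded in mitochondrial DNA, 9 were lower and 0 higher, with a median log2 difference of -0.32, beside 2.17% lower among all genes tested. With the other draw of negatives 0 of the 13 were called, at a median of -0.35. The mitochondrial share was also lower in the positives, as given above, and DESeq2 called 3 of the 9. mt-Co2, a subunit of cytochrome c oxidase, was at 250 and 308 CPM and at 144 and 227 CPM (log2 -0.47, SE 0.06, edgeR adjusted p = 2.38e-11). With negatives matched on the mitochondrial share as well as on depth, mt-Co2 differed by -0.20 and was not called (edgeR adjusted p = 0.464). That share counts mt-Co2 itself, so a smaller difference is built into the matching and nothing is read from it. Of 24 genes of glycolysis and glucose use, 2 were lower (8.33%) and 0 higher, with a median of -0.14, and 8 were lower at an unadjusted p under 0.05. The 2 were Pgk1 (log2 -0.62) and Phkg1 (log2 -0.38), called in 7 and 12 of 14 alternatives. DESeq2 called neither, and the other draw left 1 lower gene in that list. None of 36 nuclear genes of oxidative phosphorylation and none of 32 genes of fatty acid uptake and oxidation was called by edgeR or DESeq2, with 4 in each list lower and 0 higher at an unadjusted p under 0.05. Their medians were -0.08 and -0.05. Ppargc1a, Ppara and Esrrg, regulators of these genes, differed by -0.11 (SE 0.05), -0.05 (SE 0.06) and -0.03 (SE 0.05) and were not called.

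Of 19 fetal or stress genes tested, Nppa and Ctgf were lower (10.5% of the list, beside 2.17% of all genes tested) and 0 were higher. DESeq2 called neither, and the other draw of negatives left 1 lower. Nppa, atrial natriuretic peptide, was at 78.1 and 170 CPM in library 1 and 1.23 and 11 CPM in library 2, and single barcodes gave 45.7%, 41.8%, 12.5% and 68.1% of these sums. Its log2 difference of -1.3 was -0.01 once barcodes with at least 3 UMIs of atrial genes, Nppa among them, were left out. Nppb, B-type natriuretic peptide, was at 22.6 and 29.5 CPM and at 7.97 and 10.7 CPM (log2 -0.40, SE 0.14, edgeR adjusted p = 0.116). It was not called there, but was called lower in 4 of 14 alternatives, and at 2 or more GFP UMIs its log2 difference was -1.20 (edgeR adjusted p = 0.000818). Ankrd1 was not called, at 0.09 (SE 0.07). No gene of the apoptosis (18 tested), unfolded protein response (15 tested) or proliferation (9 tested) lists was called by edgeR or DESeq2, and 1, 1 and 0 genes of these lists had an unadjusted p under 0.05.

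Most lists of other cells' markers summed lower in the positives of library 2, with the pericyte list as the exception, and in library 1 the lists went either way. The 12 fibroblast markers summed to 290 CPM in positives and 319 CPM in negatives of library 1, and to 606 and 1007 CPM in library 2, and 6 of 12 were lower (50% of the list, beside 2.17% of all genes tested), with a median of -0.54. By DESeq2, and with the other draw of negatives, 0 of the 12 were called. Atrial-type markers summed to 759 and 898 CPM and to 361 and 511 CPM. Of 9 tested, 5 were lower (Nppa, Myl4, Myl7, Sln and Kcnj3), or 55.6%, of which the other draw left 1 and DESeq2 none. Sln was at 8.89 and 17.3 CPM in library 1 and at 0 and 0.306 CPM in library 2. Macrophage markers summed to 220 and 213 CPM and to 361 and 522 CPM, with 2 of 13 lower (15.4%). Endocardial markers summed to 73.1 and 74.7 CPM and to 191 and 286 CPM, with 3 of 7 lower (42.9%). DESeq2 called 0 genes of either list, and the other draw left 1 lower macrophage marker and 0 endocardial markers. The 15 cardiomyocyte markers, which include the rule genes Ttn and Ryr2, summed higher in the positives, at 63319 and 60568 CPM and at 70076 and 66029 CPM. Their median log2 difference was 0.03, with 2 higher and 1 lower (13.3% and 6.67%, beside 0.508% and 2.17% of all genes tested). DESeq2 and the other draw of negatives called 0 of them. Without barcodes that held markers of other cell types, as set out below, the median was 0.001. In the barcodes with little Ttn and Ryr2 the fibroblast list stood at 6079 and 9031 CPM.

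**Figure D5:**
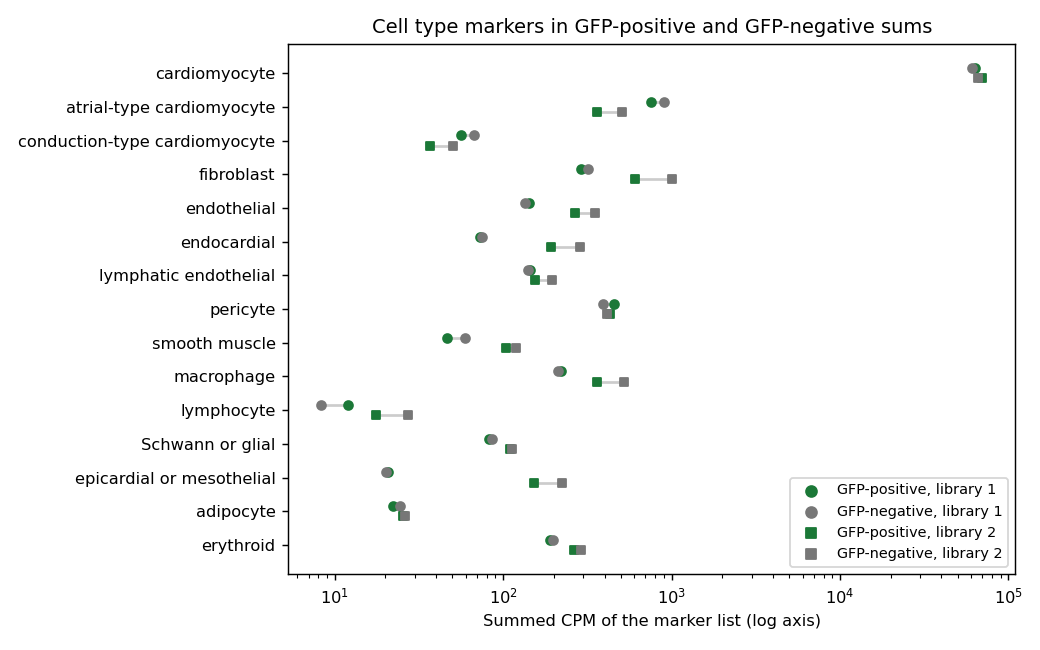
Summed CPM of 15 lists of cell type markers (log axis) in GFP-positive (green) and GFP-negative (grey) sums of library 1 (circles) and library 2 (squares). Fibroblast markers lie at 606 against 1007 CPM in library 2 and at 290 against 319 CPM in library 1.

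The part of these other transcripts in the gene differences was not tested. Values were also computed without barcodes in which other cell types' markers exceeded 0.5% of UMIs, with negatives drawn anew, and a new draw alone changed the counts by more. With 1429 and 528 pairs left, 61 genes were higher (0.46% of genes tested) and 185 lower (1.4%). Of the genes called before, 36 of the 70 and 139 of the 299 were called again in the same direction. In the channel list, of which 27 were tested under the main setting, 7 genes were then lower and 0 higher. Rpl10a, Gt(ROSA)26Sor, Eml6, Kcnd2 and Kcnip2 were called with and without those barcodes. Without atrial-type barcodes 14 genes were higher (0.102% of genes tested) and 96 lower (0.699%). Of these, 14 and 87 had been called before, and the same 5 genes were again among them. Both settings are among the 14 alternatives by which these 5 genes were picked. Their calls under both were thus fixed by that choice and add no support.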

How the data were processed

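The authors deposited unnormalized UMI counts for 27999 features, GFP among them, in a table that Cell Ranger 6.0.0 wrote per the file headers. Tools listed in the submitters' processing notes, with no role for each, are Seurat, edgeR, Cell Ranger, fastp and Trimmomatic, beside the build GRCm38 (mm10). Strand and intron counting are not given in the sources used here. Barcode suffixes 1 and 2 were taken as the samples titled RV_1 and RV_2. No cell annotation by the authors was used here.

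Counts were summed per library and class, leaving out GFP, and the 4 sums were tested with edgeR 4.0.16 in R 4.3.3 (quasi-likelihood, TMM, filterByExpr, library as a block, Benjamini-Hochberg adjustment over all 13787 genes). The block is paired by construction, since both classes of a library share a suspension. The fit had 1 residual degree of freedom and a biological coefficient of variation of 0.0473. The script was tested on simulated data. DESeq2 1.42.0 and further settings served as alternatives. Without GFP, the negative and positive sums held 11774638 and 11808982 UMIs in library 1 and 6538600 and 6523918 in library 2. The rule had no doublet step. A doublet score from simulated doublets marked 21.4% of scored barcodes of library 1 and 12.0% of library 2, likely too many, and was used only as an alternative. Python 3.11.15 with scipy 1.17.1 gave shares and intervals.

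The members, the 29 gene lists and the 15 marker lists were chosen with earlier results of these data known. Named genes were Ttn, Ryr2, Ep300, Crebbp and 17 heart genes whatever their result, the 15 largest called differences in each direction with the same sign in both libraries and at least 20 CPM, the 5 smallest adjusted p-values in each direction, and up to 4 called genes of each list. A few others are named as members of a described list. Some results of the lists are not reported here.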

Additional observations from a re-analysis of the deposited data

How the results depend on the processing

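The counts of called genes moved far more than the directions. Against 70 higher and 299 lower genes, DESeq2 gave 4 and 21, no replicate block 0 and 0, another draw of negatives 5 and 42, a UMI minimum of 4000 gave 7 and 34, and Ttn and Ryr2 at 5% or more gave 7 and 35. Matching also on mitochondrial share gave 10 and 77, matching also on Malat1 share 41 and 164, all negatives without matching 231 and 486, positives from 2 GFP UMIs 41 and 215, and no doublet-marked barcodes 25 and 76. Without atrial-type barcodes the counts were 14 and 96, without barcodes with other cell type markers 61 and 185, and with exactly 1 GFP UMI, added after the data were seen, 24 and 148. DESeq2 size factors (50 and 249), library totals only (80 and 290), no filter on low counts (60 and 268) and a robust spread, also added later (68 and 291), stayed within 1.5 times. The cause of these moves was not tested. With the other draw, all 5 and 42 calls were among those of the first, and 69 of 69 and 299 of 299 genes measured kept their sign. Leaving out a library leaves 1 sum a class, so it gives values and no test: Ep300 then ranged from 0.065 to 0.1495 and Crebbp from 0.042 to 0.1251. The pairing by library is part of the design, and the block changed no sign among the called genes.

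The GFP share was 34.0% and 30.0% with Ttn and Ryr2 at 5% or more, 24.1% in library 1 with at least 4000 UMIs, and 7.32% and 6.16% after thinning. Signs changed as follows (log2). Without other markers, Nppa 0.18 and Camk2d -0.047. Without library 2, S100a9 -2.51, S100a8 -1.88, Pecam1 0.003 and Tmem108 0.11, where leaving out library 1 gave 5.73, 5.04, -0.97 and -0.68. With Ttn and Ryr2 at 5%, mt-Atp6 0.07, Pecam1 0.023, Gpm6a 0.26, Atp2a2 -0.019 and Esrrg 0.005. Without doublet-marked barcodes, Col3a1 0.11, Pecam1 0.07, F13a1 0.024, Mrc1 0.67, Gpm6a 0.17, Atp2a2 -0.003 and Camk2d -0.067. Matched on Malat1, Pecam1 0.014, Npr3 0.043, F13a1 0.10, Mrc1 0.17, Gpm6a 0.008, Camk2d -0.041 and Malat1, the matched gene itself, -0.018. Matched on mitochondrial share, Kdr 0.042, Gpm6a 0.15 and Camk2d -0.002. Without matching, Mrc1 0.035, Slc8a1 0.015, Myh7 -0.013 and Esrrg 0.016. From 2 GFP UMIs, Slc8a1 0.042, Cacna1c 0.01, Casq2 0.11, Ankrd1 -0.01, Ppara 0.034, Ppargc1a 0.02 and Esrrg 0.061. At exactly 1 GFP UMI, Mrc1 0.035. At 4000 UMIs, Camk2d -0.003, and without atrial-type barcodes, Camk2d -0.006. Of the called named genes, 76 of 88 never changed sign in these settings.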
